A study of Mus musculus with 4 samples.

Results

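Expression of 10 immediate early genes was examined by RNA-seq in 4 libraries of the mouse colon carcinoma line CT26. The genes were picked by symbol, with earlier results of these data known. They are Egr1, Egr2 and Egr3 of the early growth response family, Klf2, Klf4, Klf6 and Klf10 of the Krüppel-like family, Ier2 and Ier3 of the immediate early response genes, and Nr4a1, an orphan nuclear receptor. All 10 were found among the 55335 gene identifiers of the deposited table, and all 10 were among the 11955 genes that passed the filter of at least 1 FPKM in at least 2 libraries. FPKM divides a gene's fragment count by transcript length and by library size, so levels of different genes are compared per length.

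The libraries titled CT26_102_R and CT26_CTL_R are labelled FOSL2-KO with chemoradiotherapy. Those titled CT26_102 and CT26_CTL are labelled FOSL2-WT with PBS. Genotype and treatment change together between these labels and cannot be told apart. The titles give a second division, the stem CT26_102 against the stem CT26_CTL, whose meaning the labels do not give, and neither do they explain the suffix R. Each combination of stem and suffix is 1 library. The treatment protocol entered for all 4 libraries is the same and names both the knockout and the chemoradiotherapy, while the design text speaks of knockdown cells. The cells, described as mesenchymal colon adenocarcinoma cells, all grew in medium with fetal bovine serum. No agent, radiation dose, hour of harvest or clone number is given. Separate cultures are not mentioned, so some or all of the spread among these 4 libraries may be technical. The main p-values below take their error from the difference between the stems in the effect of suffix R, with variance shared across genes. They do not measure a spread among replicates.

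Immediate early genes are transcribed within minutes of a stimulus such as serum, a growth factor or DNA damage, from transcription factors already present in the cell, and their RNA is short-lived. Many are switched on when the ERK pathway phosphorylates ternary complex factors that sit with SRF on the serum response element, whose core is the CArG box, or when CREB is phosphorylated on a cAMP response element (CRE). EGR and KLF proteins are zinc finger factors that bind GC-rich DNA, and they pass the signal on to a second set of genes.

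The steps between low FPKM values gave depths of about 21.9 to 26.7 M reads (M, mega) per library. Fosl2, the gene named by the genotype labels, was at 16.0 and 19.2 FPKM in CT26_102_R and CT26_CTL_R, against 9.35 and 12.7 FPKM in CT26_102 and CT26_CTL, so the transcript did not follow the knockout label. Directions below are therefore those of the libraries so labelled. Of 10 colon epithelial markers, 2 (Krt18 and Krt20) were at 1 FPKM or more in all 4 libraries, and Epcam, Cdx1 and Cdx2 were listed at 0 in all 4. All 5 mesenchymal markers, among them Vim, were at 1 FPKM or more in every library. All 4 endothelial markers were under 1 FPKM, and Cd3e of T cells was listed at 0. Of 10 leukocyte markers, 1 (Lyz2) was at 1 FPKM or more in all 4 libraries. The summed FPKM of 5 fibroblast markers was 101 and 76.0 in CT26_102_R and CT26_CTL_R, against 223 and 108 in CT26_102 and CT26_CTL, with Dcn under 1 FPKM in all 4; the part of these genes in the results was not tested. Mitochondrially encoded genes took 12.27% and 12.04% of total FPKM in CT26_102_R and CT26_102, against 9.09% and 9.37% in CT26_CTL_R and CT26_CTL, and the part of that share in the stem results was not tested either.

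Promoter windows, 250 bases before to 50 after an annotated start, were available from RefSeq (GRCm38.p6) for 6 of the 10 genes, namely Egr2, Klf2, Klf4, Klf6, Ier3 and Nr4a1. Of these 6, the windows of the 4 genes called higher with suffix R are shown, with that of Klf4, which was not called. Egr2, Nr4a1 and Klf4 differ in the elements named above, and Ier3 and Klf6 hold neither. Each is written 5′ to 3′ on the strand of the gene. Capitals mark a CArG box or the CRE core TGACG, searched on both strands, so that the core on the other strand reads CGTCA. The 8-base palindrome TGACGTCA, which holds 2 such cores, was found in none of the 6 windows.
Egr2, chr10:67537619-67537918, plus strand: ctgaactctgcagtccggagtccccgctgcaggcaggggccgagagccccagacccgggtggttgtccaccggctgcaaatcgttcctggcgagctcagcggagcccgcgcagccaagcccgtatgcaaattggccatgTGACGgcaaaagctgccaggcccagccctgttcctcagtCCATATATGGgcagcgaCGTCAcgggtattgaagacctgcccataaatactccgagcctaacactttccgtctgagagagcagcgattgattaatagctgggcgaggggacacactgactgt
Nr4a1, chr15:101266596-101266895, plus strand: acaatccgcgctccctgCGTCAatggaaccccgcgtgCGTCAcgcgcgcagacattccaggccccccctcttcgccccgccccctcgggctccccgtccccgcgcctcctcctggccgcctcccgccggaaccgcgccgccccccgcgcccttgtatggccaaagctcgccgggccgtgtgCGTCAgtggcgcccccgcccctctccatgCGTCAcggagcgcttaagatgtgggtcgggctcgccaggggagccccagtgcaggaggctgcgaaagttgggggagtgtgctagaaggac
Ier3, chr17:35821463-35821762, plus strand: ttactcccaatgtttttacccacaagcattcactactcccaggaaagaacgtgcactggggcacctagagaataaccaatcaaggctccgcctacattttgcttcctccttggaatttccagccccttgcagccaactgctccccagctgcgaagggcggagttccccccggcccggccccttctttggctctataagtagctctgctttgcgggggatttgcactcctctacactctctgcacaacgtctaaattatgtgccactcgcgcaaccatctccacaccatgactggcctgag
Klf6, chr13:5861239-5861538, plus strand: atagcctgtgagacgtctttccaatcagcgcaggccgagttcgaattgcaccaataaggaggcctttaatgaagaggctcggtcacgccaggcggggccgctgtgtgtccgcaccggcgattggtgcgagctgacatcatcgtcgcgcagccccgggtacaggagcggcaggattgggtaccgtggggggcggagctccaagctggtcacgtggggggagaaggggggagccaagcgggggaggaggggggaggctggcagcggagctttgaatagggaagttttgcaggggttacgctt
Klf4, chr4:55532426-55532725, minus strand: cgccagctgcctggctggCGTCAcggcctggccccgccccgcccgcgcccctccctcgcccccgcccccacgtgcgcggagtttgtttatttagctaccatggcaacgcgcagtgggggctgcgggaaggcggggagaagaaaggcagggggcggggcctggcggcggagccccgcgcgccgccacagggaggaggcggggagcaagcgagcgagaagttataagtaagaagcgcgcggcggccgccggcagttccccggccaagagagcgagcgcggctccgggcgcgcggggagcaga
RefSeq lists 5 starts for Egr2, and the window shown is that with the most other starts of the gene within 100 bases, the lowest by coordinate among ties.

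The Egr2 window held 1 CArG box, from -72 to -63 relative to the start, between 2 CRE cores. A CArG box was in 1.63% of the 32851 promoter windows of the table, and in none of the other 5 windows. The Nr4a1 window held 4 CRE cores, all on the opposite strand, and the Klf2 and Klf4 windows held 1 each. The CRE core was in 20.8% of all windows. The Ier3 and Klf6 windows held neither element and 1 GC box (GGGCGG, in 35.7% of all windows) each. Klf4 held 4 GC boxes, Nr4a1 3 and Klf2 2. The EGR-type motif GCGNGGGCG, which overlaps some GC boxes, was found 2 times in Klf4, 1 time in Klf2 and 1 time in Nr4a1, against 5.55% of all windows with at least 1. The AP-1 motif TGANTCA (7.81% of all windows) and the TATA motif TATAAA (13.6%) were in none of the 6. A match describes the letters only.

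**Figure D1:**
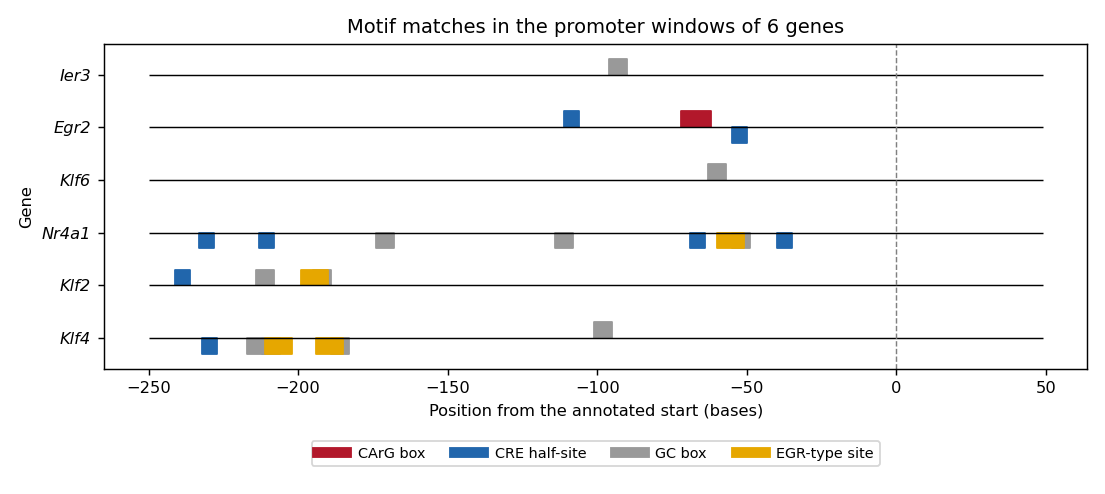
Matches of 4 motifs in the 300-base promoter windows of 6 genes, by position in bases from the annotated start (0, dashed line). Blocks above a line are on the strand of the gene and blocks below it on the opposite strand. CRE half-site in the legend stands for the core TGACG, GC box for GGGCGG and EGR-type site for GCGNGGGCG. The CArG box of Egr2 lies between its CRE cores, Nr4a1 has 4 CRE cores, and Ier3 and Klf6 have 1 GC box each.

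Between the labelled groups, 5 of the 10 genes were higher with suffix R, namely Ier3, Egr1, Egr2, Klf6 and Nr4a1. None was lower, and Egr3, Klf2, Klf4, Klf10 and Ier2 did not pass. These calls come from a limma fit on log2(FPKM + 1) over all 11955 tested genes with stem and suffix as terms (Benjamini-Hochberg adjusted p under 0.05), in which 7.57% of tested genes were called higher and 5.32% lower. In that fit the terms leave 1 residual degree of freedom, the difference between the stems in the effect of suffix R. To it limma's prior adds 4.01. In the fit without the stem 0 of the 10 genes passed, 0 of them had an unadjusted p under 0.05 (10.7% of tested genes did), and 0.00836% of tested genes were called. None passed with no filter on low values or with any 1 of the 4 libraries left out, and only Egr1 and Ier3 passed with a filter at 0.1 FPKM. In these bulk libraries, fewer cells of a kind and less RNA per cell cannot be told apart. An exact permutation test of a single gene with 2 libraries against 2 cannot give a p below 0.333.

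**Figure D2:**
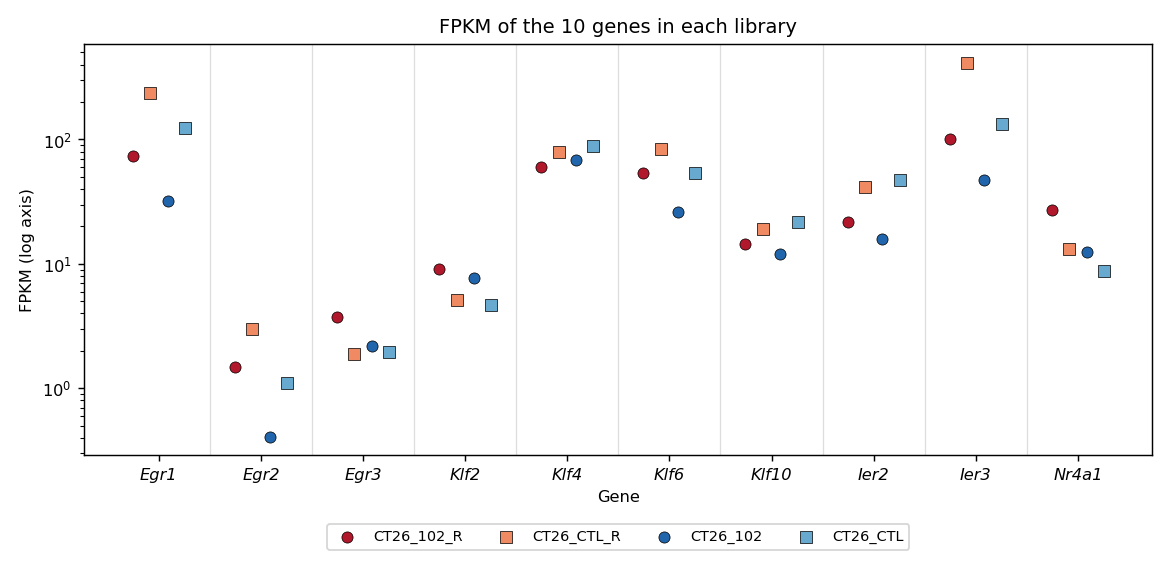
FPKM of each of the 10 genes in the 4 libraries, 1 point per library, on a log axis. Red and orange mark the libraries labelled FOSL2-KO with chemoradiotherapy (suffix R), and dark and light blue those labelled FOSL2-WT with PBS. Circles are stem CT26_102 and squares stem CT26_CTL. Ier3 spans 47.7 to 414 FPKM and Klf4 only 60.0 to 88.3 FPKM.

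Egr1 (ENSMUSG00000038418, GRCm38 chromosome 18, 34859823 to 34864984, plus strand) encodes the founding zinc finger factor of its family, a direct output of ERK signalling. It was at 73.1 and 237 FPKM in CT26_102_R and CT26_CTL_R, against 31.8 and 124 FPKM in CT26_102 and CT26_CTL. The groups overlapped, because CT26_CTL lay above CT26_102_R, but in each stem the library with suffix R was the higher. The ratio of R to none was 2.30 in stem CT26_102 and 1.90 in stem CT26_CTL. The log2 difference of the labelled groups was 1.05 ± 0.12 (SE, n = 2 libraries per group, limma adjusted p = 0.0201).

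Egr2 (ENSMUSG00000037868, chromosome 10, 67535475 to 67542188, plus strand), a factor known for its roles in myelination and in T cell restraint, was far less abundant. It was at 1.48 and 3.02 FPKM in CT26_102_R and CT26_CTL_R, against 0.409 and 1.11 FPKM in CT26_102 and CT26_CTL. Every library with suffix R lay above every library without it, with the lowest value in CT26_102, and Egr2 passed the filter through the other 3 libraries. At the estimated depth and an exonic length of 3398 bases, 0.409 FPKM corresponds to about 30 reads and 3.02 FPKM to about 225, so the Egr2 values carry more counting error than those of Egr1. The ratio of R to none was 3.63 in stem CT26_102 and 2.73 in stem CT26_CTL. On the log2(FPKM + 1) scale, which understates folds at this level, the difference was 0.87 ± 0.15 (SE, n = 2 per group, limma adjusted p = 0.0351).

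Egr3 (ENSMUSG00000033730, chromosome 14, 70077203 to 70082614, plus strand), which can be induced by Egr1 in other cell types, was at 3.75 and 1.89 FPKM in CT26_102_R and CT26_CTL_R, against 2.19 and 1.96 FPKM in CT26_102 and CT26_CTL. The high value was that of CT26_102_R, and the other 3 libraries were close together. Its difference of 0.27 ± 0.20 did not pass (SE, n = 2 per group, limma adjusted p = 0.367), with a 95% interval from -0.24 to 0.78. Egr1 made up 93.3% and 98.0% of the summed FPKM of Egr1 to Egr4 in CT26_102_R and CT26_CTL_R, against 92.5% and 97.6% in CT26_102 and CT26_CTL. Egr4 was listed at 0 in all 4 libraries.

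Of the 4 Krüppel-like genes among the 10, only Klf6 passed with suffix R. Klf6 (ENSMUSG00000000078, chromosome 13, 5861482 to 5870394, plus strand), a growth-restraining factor induced by injury in many tissues, was at 53.5 and 83.8 FPKM in CT26_102_R and CT26_CTL_R, against 26.1 and 53.4 FPKM in CT26_102 and CT26_CTL. The groups did not overlap, though CT26_102_R and CT26_CTL were almost level. The ratio of R to none was 2.05 in stem CT26_102 and 1.57 in stem CT26_CTL, and the log2 difference was 0.82 ± 0.14 (SE, n = 2 per group, limma adjusted p = 0.0344).

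Klf4 (ENSMUSG00000003032, chromosome 4, 55527143 to 55532466, minus strand), a differentiation factor of the gut epithelium, was abundant in every library. It was at 60.0 and 79.0 FPKM in CT26_102_R and CT26_CTL_R, against 68.4 and 88.3 FPKM in CT26_102 and CT26_CTL. It alone among the 10 genes was lower with suffix R in both stems, at ratios of 0.877 and 0.894, a pattern that 38.2% of tested genes shared. The log2 difference of -0.17 ± 0.11 did not pass (SE, n = 2 per group, limma adjusted p = 0.302), with a 95% interval from -0.45 to 0.11. The ratio of Klf6 to Klf4 was 0.891 and 1.06 in CT26_102_R and CT26_CTL_R, against 0.381 and 0.604 in CT26_102 and CT26_CTL.

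Klf2 (ENSMUSG00000055148, chromosome 8, 72319033 to 72321656, plus strand), known for its role in endothelial quiescence and T cell trafficking, was at 9.15 and 5.16 FPKM in CT26_102_R and CT26_CTL_R, against 7.69 and 4.65 FPKM in CT26_102 and CT26_CTL. Klf10 (ENSMUSG00000037465, chromosome 15, 38291463 to 38300706, minus strand), an early gene of TGF-beta signalling, was at 14.4 and 19.2 FPKM in CT26_102_R and CT26_CTL_R, against 11.96 and 21.8 FPKM in CT26_102 and CT26_CTL. Neither passed in the labelled group comparison. The log2 difference of Klf2 was 0.17 with a 95% interval from -0.17 to 0.52 (limma adjusted p = 0.386). That of Klf10 was 0.04 with an interval from -0.37 to 0.44 (limma adjusted p = 0.878).

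Ier3 (ENSMUSG00000003541, chromosome 17, 35821684 to 35822923, plus strand), also called IEX-1, encodes a small protein that modulates apoptosis and is induced by NF-kB and p53. It was at 101 and 414 FPKM in CT26_102_R and CT26_CTL_R, against 47.7 and 132 FPKM in CT26_102 and CT26_CTL. CT26_CTL_R stood highest, and CT26_CTL lay above CT26_102_R, so the groups overlapped. The ratio of R to none was 2.12 in stem CT26_102 and 3.13 in stem CT26_CTL. The labelled groups differed by 1.35 ± 0.16 on the log2 scale (SE, n = 2 per group, limma adjusted p = 0.0216). That was the largest of the 10 genes with a pseudocount of 1, whereas with a pseudocount of 0.1 Egr2 stood at 1.503 and Ier3 at 1.363.

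Ier2 (ENSMUSG00000053560, chromosome 8, 84661331 to 84662852, minus strand), a nuclear protein of growth factor responses, was at 21.6 and 41.5 FPKM in CT26_102_R and CT26_CTL_R, against 15.8 and 47.6 FPKM in CT26_102 and CT26_CTL. It was higher with suffix R in stem CT26_102 and lower with it in stem CT26_CTL, at ratios of 1.37 and 0.872. The difference of 0.12 ± 0.18 did not pass (SE, n = 2 per group, limma adjusted p = 0.674), with a 95% interval from -0.35 to 0.59. The ratio of Ier3 to Ier2 was 4.67 and 9.98 in CT26_102_R and CT26_CTL_R, against 3.02 and 2.78 in CT26_102 and CT26_CTL.

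Nr4a1 (ENSMUSG00000023034, chromosome 15, 101254269 to 101274795, plus strand), also called Nur77, was at 26.9 and 13.2 FPKM in CT26_102_R and CT26_CTL_R, against 12.5 and 8.84 FPKM in CT26_102 and CT26_CTL. The groups did not overlap, although CT26_CTL_R and CT26_102 were close. The ratio of R to none was 2.15 in stem CT26_102 and 1.497 in stem CT26_CTL. The log2 difference of 0.79 ± 0.17 lay just inside the threshold (SE, n = 2 per group, limma adjusted p = 0.0480), and it was lost with a pseudocount of 0.1, with upper-quartile rescaling, without the variance trend and with a length trend removed. Nr4a1 was the main member of its family, with 88.4% and 88.0% of the summed FPKM of Nr4a1 to Nr4a3 in CT26_102_R and CT26_CTL_R, against 72.7% and 56.4% in CT26_102 and CT26_CTL.

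**Figure D3:**
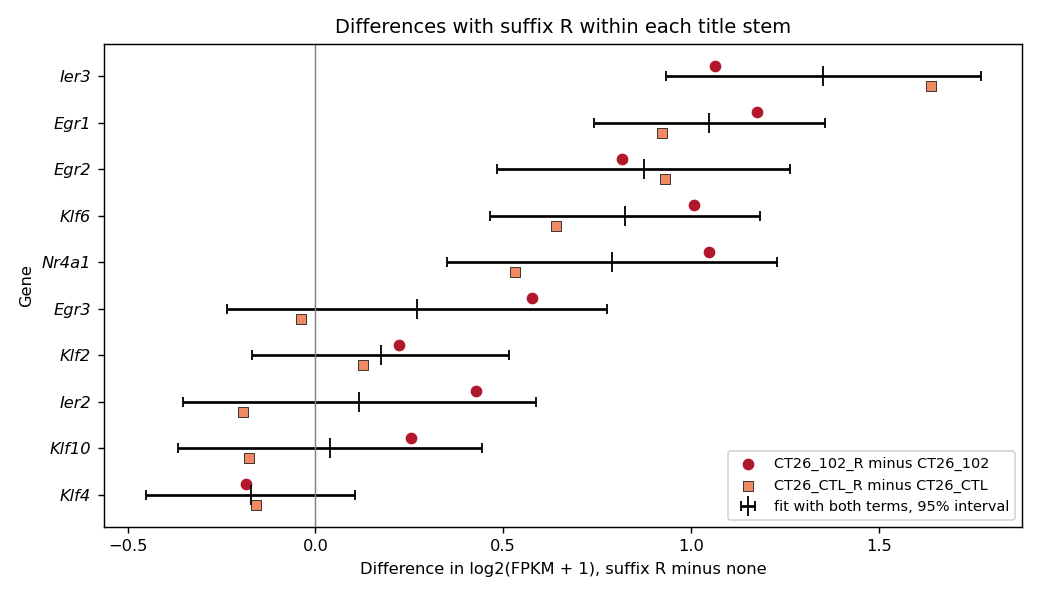
Differences in log2(FPKM + 1) between suffix R and none for the 10 genes, ordered by size. Red circles are CT26_102_R minus CT26_102, orange squares CT26_CTL_R minus CT26_CTL, and black bars the difference of the fit with both terms and its 95% interval. The intervals of Ier3, Egr1, Egr2, Klf6 and Nr4a1 lie above 0, and those of the other 5 genes include 0.

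Over the 10 genes, 6 were higher with suffix R in both stems, against 39.1% of tested genes. The 6 are the genes called and Klf2. Of these, 4 (Egr1, Egr2, Klf6 and Ier3) were at least 1.5 times higher in both stems, as were 8.82% of tested genes. Egr3, Klf10 and Ier2 had higher values with suffix R in stem CT26_102 and lower ones in stem CT26_CTL, and 22.6% of tested genes had opposite signs in this way. In 3 of the 10 genes (Egr2, Klf6 and Nr4a1) the groups did not overlap and the R libraries were higher, against 22.3% of tested genes, and in 0 were the R libraries lower without overlap, against 21.1% of tested genes. The median log2 difference of the 10 genes was 0.53, beside 0.00 over all tested genes.

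Between the title stems, Egr1, Ier3, Ier2, Klf6 and Egr2 were lower in stem CT26_102, and Nr4a1 and Klf2 were higher. Klf4, Klf10 and Egr3 did not pass. Of tested genes 9.44% were called lower and 12.5% higher in stem CT26_102 in the same fit, and the balance over all genes depended on scaling, since 57% of calls were upward without rescaling and 40.5% with median-of-ratios rescaling. In the fit without the suffix 0 of the 10 genes passed, and 0.284% of tested genes did. Unadjusted p-values under 0.05 in that fit were found for 5 of the 10 genes (Egr1, Klf2, Klf10, Ier2 and Ier3), against 16.7% of tested genes. Again 0 passed with no filter on low values or with any 1 library left out, and only 4 of the 5 lower genes passed with a filter at 0.1 FPKM.

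In size, the fitted stem difference exceeded the suffix R difference in 7 of the 10 genes, all but Egr2, Klf6 and Nr4a1, though the gap was not tested. Egr1 was at 73.1 and 31.8 FPKM in CT26_102_R and CT26_102, against 237 and 124 FPKM in CT26_CTL_R and CT26_CTL, so all stem CT26_102 values lay below all stem CT26_CTL values. Its log2 difference between stems was -1.81 ± 0.12 (SE, n = 2 per stem, limma adjusted p = 0.00430), with CT26_102 over CT26_CTL ratios of 0.309 with suffix R and 0.256 without. For Ier3 the ratios were 0.244 with suffix R and 0.361 without, and the log2 difference was -1.74 ± 0.16 (limma adjusted p = 0.00784). Ier2, which did not pass with suffix R, did pass between stems, with ratios of 0.520 with suffix R and 0.332 without and a log2 difference of -1.22 ± 0.18 (limma adjusted p = 0.0177).

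Klf6 and Egr2 differed less between stems, and their stems overlapped. The log2 difference of Klf6 was -0.82 ± 0.14 (limma adjusted p = 0.0224) and that of Egr2 -0.64 ± 0.15 (limma adjusted p = 0.0437). The Egr2 call was lost with the length trend removed (limma adjusted p = 0.0541). Nr4a1 went the other way, with 26.9 and 12.5 FPKM in CT26_102_R and CT26_102, against 13.2 and 8.84 FPKM in CT26_CTL_R and CT26_CTL, a log2 difference of 0.71 ± 0.17 (limma adjusted p = 0.0444). Klf2 was also higher in stem CT26_102, by 0.67 ± 0.13 (limma adjusted p = 0.0302), and its stems did not overlap. Klf10 (-0.60 ± 0.16, limma adjusted p = 0.0541) and Klf4 (-0.38 ± 0.11, limma adjusted p = 0.0659) lay just outside the threshold. Both passed with upper-quartile or median-of-ratios rescaling. Nr4a1 did not pass with either rescaling or without the variance trend. Egr3 was at 0.41 ± 0.20 (limma adjusted p = 0.184). The stems did not overlap, with stem CT26_102 lower, in 5 of the 10 genes (Egr1, Klf4, Klf10, Ier2 and Ier3), against 20.9% of tested genes, and with stem CT26_102 higher in 2 (Egr3 and Klf2), against 28% of tested genes. The median over the 10 genes was -0.62, beside 0.05 over all tested genes.

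Set side by side, 4 of the 10 genes (Egr1, Egr2, Klf6 and Ier3) were called higher with suffix R and lower in stem CT26_102, as were 1.82% of tested genes. Only Nr4a1 was called higher with suffix R and higher in stem CT26_102, as were 0.811% of tested genes. Among the 905 genes called higher with suffix R, 24.1% were called lower in stem CT26_102. Egr1 and Ier3 had the same order of the 4 libraries, from CT26_102 as the lowest through CT26_102_R and CT26_CTL to CT26_CTL_R as the highest. Egr2 and Klf6 shared another order, in which CT26_CTL lay below CT26_102_R. Klf4, Klf10 and Ier2 were highest in CT26_CTL. Whether the effect of suffix R differed between stems could not be tested, since each combination is 1 library.

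**Figure D4:**
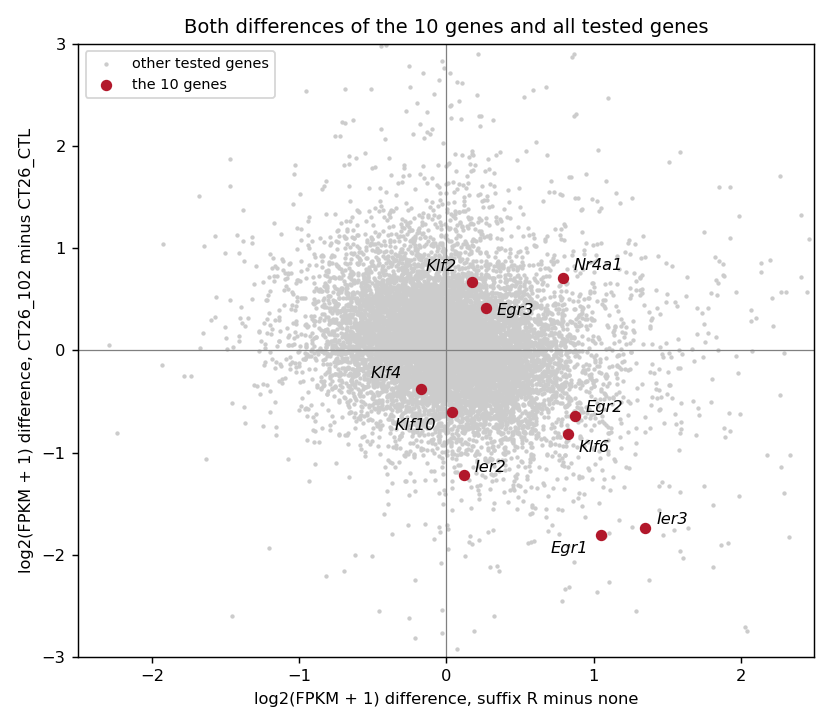
Differences in log2(FPKM + 1) with suffix R (horizontal) and between the stems CT26_102 and CT26_CTL (vertical) for the 10 genes in red and all other tested genes in grey. The axes leave out 39 genes with larger differences. Egr1 and Ier3 lie at the lower right, with Egr2 and Klf6 nearer the centre, Nr4a1 at the upper right, and Ier2 below 0 with little difference in suffix R.

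By level, Ier3, Egr1, Klf4 and Klf6 held the first 4 places among the 10 genes in all 4 libraries, and Egr2 and Egr3 the last 2. Ier3 was first in CT26_102_R, CT26_CTL_R and CT26_CTL, and Klf4 was first in CT26_102. Ier3 stood at percentile 95.9 and 98.9 of tested genes in CT26_102_R and CT26_CTL_R, against 91.6 and 96.5 in CT26_102 and CT26_CTL. Egr1 stood at percentile 94.1 and 97.9 in CT26_102_R and CT26_CTL_R, against 87.1 and 96.3 in CT26_102 and CT26_CTL. Between neighbours in that order, Klf4 and Klf6 differed by a ratio that crossed 1 among the libraries, and so did Egr2 and Egr3. The highest value of a gene was 8.68 times its lowest for Ier3, 7.44 times for Egr1 and 7.38 times for Egr2, against 1.47 times for Klf4.

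Of the other genes of these families, 9 of 19 could be tested, and most did not pass. With suffix R 1 was called higher and 1 lower, beside 7.57% and 5.32% of all tested genes. Between stems 1 was called higher and 1 lower in stem CT26_102, beside 12.5% and 9.44% of all tested genes. Ier5, a paralog of Ier2, rose, to 32.6 and 57.6 FPKM in CT26_102_R and CT26_CTL_R, against 10.1 and 18.7 FPKM in CT26_102 and CT26_CTL. Its log2 difference of 1.58 ± 0.12 exceeded that of Ier3 (SE, n = 2 per group, limma adjusted p = 0.0144), and between stems it was -0.81 ± 0.12 (limma adjusted p = 0.0177). Klf13 fell, to 4.65 and 6.15 FPKM in CT26_102_R and CT26_CTL_R, against 8.65 and 9.41 FPKM in CT26_102 and CT26_CTL (limma adjusted p = 0.0473). The Klf13 call was lost under all 8 other settings, 6 of which, all but the fit without the stem and that with no filter, gave an adjusted p between 0.0516 and 0.0815. The other 7 did not pass with suffix R. Klf7 was higher in stem CT26_102, at 6.87 and 5.84 FPKM in CT26_102_R and CT26_102, against 4.11 and 3.89 FPKM in CT26_CTL_R and CT26_CTL (limma adjusted p = 0.0468). That call was lost with upper-quartile rescaling (limma adjusted p = 0.0604), median-of-ratios rescaling (0.068), the length trend removed (0.114) and a filter at 0.1 FPKM (0.0814). It was also lost without the suffix term (limma adjusted p = 0.276) and with no filter (0.156). Both Ier5 calls were likewise lost with no filter and with the tested comparison as the only term. The median difference with suffix R over the 9 genes was 0.13.

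Of 33 tested immediate early genes outside these families, 17 rose with suffix R, 0 fell and 16 did not pass, where 7.57% of all tested genes were called higher and 5.32% lower. The 17 became 10 with a filter at 0.1 FPKM, 0 without the stem term, 0 with no filter, 1 without CT26_102 or without CT26_CTL, and 0 without CT26_102_R or without CT26_CTL_R. Their median log2 difference was 0.66. Those with the smallest p included Btg2, an antiproliferative gene, at 83.7 and 51.8 FPKM in CT26_102_R and CT26_CTL_R, against 5.78 and 5.62 FPKM in CT26_102 and CT26_CTL. Cxcl1, a neutrophil chemokine, was at 10.8 and 77.0 FPKM in CT26_102_R and CT26_CTL_R, against 0.963 and 11.1 FPKM in CT26_102 and CT26_CTL. The AP-1 gene Jun had R to none ratios of 2.30 and 2.23 in stems CT26_102 and CT26_CTL, and the small Maf gene Maff 4.75 and 6.07. The stress kinase gene Plk2 had ratios of 4.69 and 3.44, the phosphatase regulator Ppp1r15a 2.60 and 3.20, Phlda1 1.92 and 2.26, and Zfp36l1, which encodes an RNA-decay factor, 3.01 and 2.31. Between stems, 12 of the 33 were lower in stem CT26_102, 4 were higher and 17 did not pass, beside 9.44% and 12.5% of all tested genes. Fos, named here after its values were seen, did not pass with suffix R (limma adjusted p = 0.775). It was at 9.77 and 4.22 FPKM in CT26_102_R and CT26_CTL_R, against 11.6 and 2.98 FPKM in CT26_102 and CT26_CTL, and was higher in stem CT26_102 (limma adjusted p = 0.0160).

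Of 24 tested upstream genes, for SRF, its ternary complex and myocardin-related partners, CREB with its coactivators, and the ERK and p38 pathways, 0 rose with suffix R, 1 fell and 23 did not pass, beside the 7.57% and 5.32% of all tested genes. The median log2 difference was -0.14. The gene that fell was Mapk14, which encodes p38 alpha, at 3.94 and 9.28 FPKM in CT26_102_R and CT26_CTL_R, against 9.82 and 16.4 FPKM in CT26_102 and CT26_CTL (limma adjusted p = 0.0321). Between stems, 4 of the 24 were lower in stem CT26_102, 1 was higher and 19 did not pass, where 21.9% of all tested genes were called in either direction. Mapk14, Mapk3 (ERK1) and Map2k2 (MEK2) were among those lower, and the calls of Mapk3 and Map2k2 were lost without the variance trend (limma adjusted p = 0.0534 and 0.0504) and with a filter at 0.1 FPKM (0.0617 and 0.0624), that of Mapk3 also with the length trend removed (0.0638). None of the 24 passed in either comparison with no filter or with the tested comparison as the only term. Mapk3 was at 68.4 and 102.3 FPKM in CT26_102_R and CT26_102, against 145 and 140 FPKM in CT26_CTL_R and CT26_CTL (limma adjusted p = 0.0396). Rps6ka1, which encodes the ERK-activated kinase RSK1, was higher in stem CT26_102, at 4.91 and 5.85 FPKM in CT26_102_R and CT26_102, against 1.56 and 1.78 FPKM in CT26_CTL_R and CT26_CTL (limma adjusted p = 0.0107). These are transcript levels, and phosphorylation was not measured.

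Downstream, 10 of 14 listed EGR corepressors and described EGR1 target genes could be tested. Ptgs2, which encodes cyclooxygenase-2, was the 1 that rose with suffix R. It was at 224 and 299 FPKM in CT26_102_R and CT26_CTL_R, against 43.9 and 108 FPKM in CT26_102 and CT26_CTL, a log2 difference of 1.89 ± 0.22 (SE, n = 2 per group, limma adjusted p = 0.0201). None fell, and 9 did not pass, among them the corepressor genes Nab1 and Nab2. These counts lie near the shares over all tested genes, of which 7.57% were called higher and 5.32% lower. The median with suffix R over the 10 was -0.13.

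**Figure D5:**
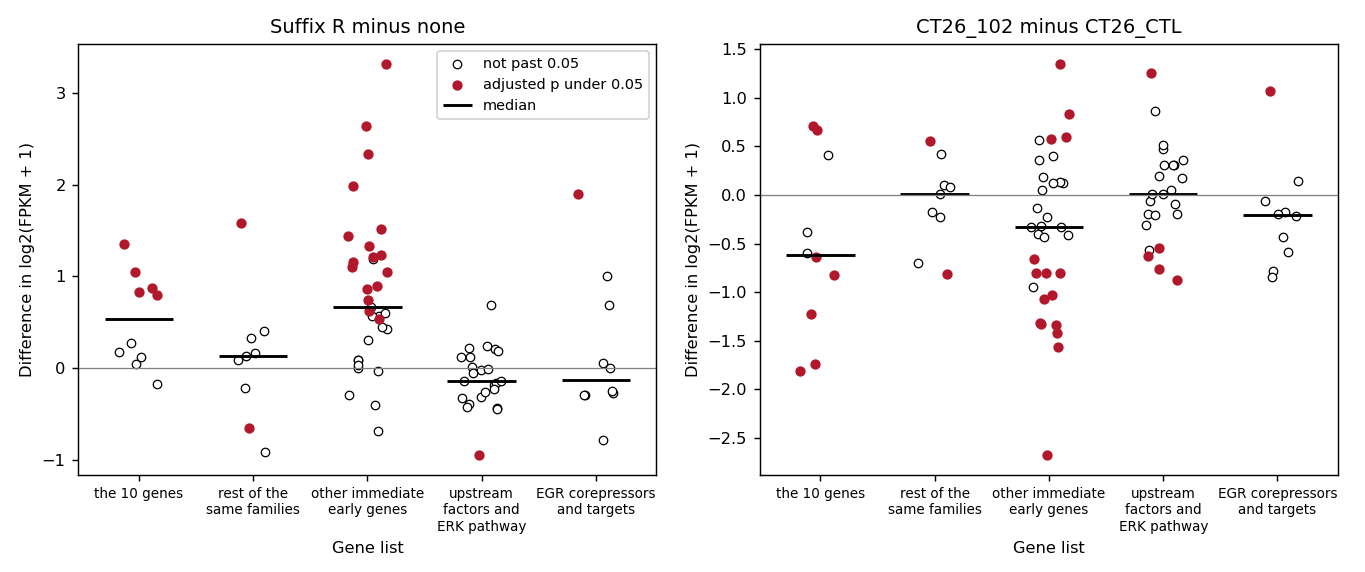
Differences in log2(FPKM + 1) with suffix R (left) and between stems (right) for the 10 genes and 4 lists of related genes, 1 point per tested gene, with the median as a line. Filled points have an adjusted p under 0.05 in the fit with both terms. With suffix R the medians of the 10 genes and of the other immediate early genes are 0.53 and 0.66, and those of the upstream and target lists lie below 0.

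The genes whose 4 values were most like those of Egr1 were found by Euclidean distance between log2(FPKM + 1) values, each gene centred on its own mean over the 4 libraries. The nearest 5 of the tested genes were Zbp1, a nucleic acid sensor (distance 0.208), the noncoding RNA Mirt1 (0.231), Tmem140 (0.253), an identifier with no symbol in the table (ENSMUSG00000118330, 0.289) and Rsad2, an interferon-induced antiviral gene (0.307). Zbp1 was at 14.3 and 56.2 FPKM in CT26_102_R and CT26_CTL_R, against 6.69 and 24.7 FPKM in CT26_102 and CT26_CTL. Mirt1 was at 3.19 and 11.4 FPKM in CT26_102_R and CT26_CTL_R, against 0.560 and 4.79 FPKM in CT26_102 and CT26_CTL. ENSMUSG00000118330 was at 0.996 FPKM in CT26_102. At such low values the added 1 FPKM understates folds, so the nearness of these genes to Egr1 rests partly on it. Among the 10 genes Ier3 came nearest to Egr1, at rank 20, followed by Klf6 at rank 188, Ier2 at 268 and Egr2 at 350. Nr4a1 and Klf2 were at ranks 9100 and 9738 of the tested genes.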

How the data were processed

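The authors deposited 1 table of FPKM per gene and library for 4 CT26 libraries. Per the labels' protocols, RNA came from an RNeasy extraction and a SMARTer mRNA-seq kit was used for the libraries. The submitters' processing notes name GRCm38 and mm10, a pair of names for 1 assembly. For the aligner, the quantification tool and strandedness, the sources used here give nothing. Positions and exonic lengths came from GENCODE M21, which holds 99.67% of the identifiers, and in which no other gene overlaps the 10 loci. Depth was read from the FPKM steps of single-transcript genes of at least 500 exonic bases. Between 21.6% and 24.0% of values under 5 reads were whole within 0.02 reads, so depths and read numbers are approximate.

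Values were analysed as log2(FPKM + 1) with R 4.3.3 and limma 3.58.1 (lmFit, eBayes with a mean-variance trend, two-sided), with title stem and labelled group as terms. Genes with at least 1 FPKM in at least 2 libraries were kept, and p-values were adjusted over all 11955. Intervals use 5.01 degrees of freedom. The fitting step was tested on simulated data that held no difference between stems in the effect of suffix R. False calls were checked there only among longer genes, which include all 10. The shares called over all 11955 genes are therefore not covered by that check. The words rose and fell refer to an adjusted p under 0.05 in that fit, and SE is the moderated standard error. The 10 genes, the lists and the tests were chosen with earlier results of these data known. Named were all 10 genes and, from each of 4 lists, up to 8 genes past the threshold in either comparison, taken by smallest p with the labelled group first; some of these are not reported here. Calls and log2 differences were recomputed under 8 other settings and with each library left out. The genes nearest to Egr1 were recomputed only with a pseudocount of 0.1, with no filter and with a filter at 0.1 FPKM. Overlaps, directions within stems, ranks, family shares and motif matches were not recomputed.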

Additional observations from a re-analysis of the deposited data

Results flagged for a closer look

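Egr3, Klf10 and Ier2 were higher with suffix R in stem CT26_102 and lower with it in stem CT26_CTL. The difference between the stems in the log2 effect of R was 0.61 for Egr3 (0.58 in stem CT26_102 and -0.04 in stem CT26_CTL), 0.43 for Klf10 (0.25 and -0.18) and 0.62 for Ier2 (0.43 and -0.19). With 1 library for each combination of stem and suffix these differences were not tested.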

How the results depend on the processing

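With 1 library for each combination of stem and suffix, the fit with both terms rests on 1 residual degree of freedom, and a left-out library leaves none, so those fits hold the tested division alone and the lone library is assumed to vary like the others. Leaving out any 1 of the 4 libraries (CT26_102_R, CT26_CTL_R, CT26_102 or CT26_CTL) gave 0 calls among the 10 genes in either comparison. Over all genes it gave 0 to 9 higher and 1 to 3 lower calls with suffix R, and 0 to 13 higher and 0 to 3 lower calls between stems.

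With suffix R, 5 of the 10 genes were called higher, against 0 without the second term, 0 with no filter and 2 with a filter at 0.1 FPKM, and 4 or 5 under the other settings. Between stems, 2 were called higher, against 0 without the second term, 0 with no filter, 0 with a filter at 0.1 FPKM, and 1 each with upper-quartile rescaling, with median-of-ratios rescaling and without the variance trend. The 5 called lower became 0 without the second term, 0 with no filter, 4 with a filter at 0.1 FPKM, 4 with the length trend removed, and 7 with either rescaling. Over all genes, 905 higher and 636 lower calls with suffix R became 0 and 1 without the second term, 0 and 0 with no filter, 231 and 101 with a filter at 0.1 FPKM and 591 and 413 with the length trend removed. The 1494 higher and 1129 lower calls between stems became 28 and 6 without the second term and 0 and 0 with no filter. The cause of these changes was not tested.

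The log2 difference of Ier2 with suffix R was -0.018 with the length trend removed. The ranges below are from the fits that hold the tested division alone, where a left-out library also unbalances the other division. Differences with suffix R that changed sign in these fits ranged from -0.090 to 0.63 for Egr3, -0.19 to 0.53 for Klf2 and -0.37 to 0.022 for Klf4. For Klf10 they ranged from -0.37 to 0.45, and for Ier2 from -0.65 to 0.88. Those of the genes called higher ranged from 0.082 to 2.02 for Egr1, 0.53 to 1.22 for Egr2, 0.32 to 1.33 for Klf6, 0.34 to 2.37 for Ier3 and 0.30 to 1.28 for Nr4a1. Stem differences ranged from -2.40 to -1.22 for Egr1, -1.10 to -0.17 for Egr2, -1.32 to -0.32 for Klf6, -1.44 to -1.01 for Ier2, -2.56 to -0.92 for Ier3, 0.56 to 0.78 for Klf2 and 0.19 to 1.24 for Nr4a1. The stem difference of Maff ranged from -2.29 to 0.24 in these fits, but was -1.23 among libraries with suffix R and -0.82 among those without. With both terms kept, leaving out a library gives the suffix R difference within 1 stem. Klf2 then lay at 0.126 and 0.223, Klf4 at -0.159 and -0.186 and Egr1 at 0.923 and 1.175, without a change of sign. Egr3, Klf10 and Ier2 still took both signs. The main fit holds the title stem, whose meaning is not given, as a term, and without it 0 of the 10 genes were called with suffix R. Depth limits Egr2 most, at about 30 reads in CT26_102.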
